A study of Mus musculus with 16 samples.

Results

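The genes described here are Pdgfra, Cspg4, Vcan, Gpr17, Sox6, Ptprz1, Bcas1, Enpp6, Tnr and Neu4, which mark oligodendrocyte precursors and the premyelinating cells that follow them. They were chosen by name, as markers, and read from the deposited table of counts per gene. All 10 were found once among 54532 entries, and all 10 were among the 17736 genes with enough counts to test. RNA of brain tissue from female mice of 9 months was sequenced in bulk in 16 libraries, 4 for each combination of Ch25h genotype and tau status. Mice with Ch25h form the groups Ch25h+/+ Tau- and Ch25h+/+ Tau+, and mice without it form Ch25h-/- Tau- and Ch25h-/- Tau+. Ch25h encodes the enzyme that makes 25-hydroxycholesterol, and Ch25h-/- marks animals with both alleles lost. Tau+ is read as carrying a tau transgene, whose construct, promoter and background strain are not given in the sources used here, and no other treatment is named for any group.

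Oligodendrocyte precursors are the dividing glial cells that stay in the adult brain and replace myelinating oligodendrocytes. They carry the PDGF receptor and the NG2 proteoglycan, sit in a matrix of chondroitin sulfate proteoglycans and tenascin-R, and are held in the precursor state in part by transcription factors of the SoxD group. On leaving the cycle they pass through a short premyelinating stage marked by GPR17, BCAS1 and ENPP6 before they switch on the myelin proteins. Several of these genes are also read from other cells: PDGFRA marks fibroblasts, NG2 marks mural cells of vessels, PTPRZ1 and versican are made by astrocytes, SOX6 and tenascin-R by interneurons, and BCAS1 stays on in mature oligodendrocytes. In bulk tissue, fewer cells of a type and less RNA per cell cannot be told apart.

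Library totals were 15530352 to 25602500 counts. Ch25h had 5 to 30 counts in the Ch25h+/+ libraries and 0 in all 8 Ch25h-/- libraries. Summed markers of cortex were 864 to 1089 CPM (counts scaled to a common library size, with TMM factors) and those of hippocampus 119 to 277 CPM. Frontal cortex is the tissue on the labels, whereas the design text has hippocampus. Summed markers of choroid plexus ran from 178 to 4027 CPM, and no list of cell type markers had a gene at 0 in all libraries. The libraries fall into separate classes by the ribosomal RNA entry CT010467.1. It lay at 2289 to 5684 CPM of total counts in 7 libraries, called rRNA-rich below, and at 110.8 to 474.6 CPM in the other 9. All 4 Ch25h-/- Tau- libraries and replicates 2, 3 and 4 of Ch25h-/- Tau+ were rRNA-rich, and no Ch25h+/+ library was. Ch25h genotype and library class therefore coincide in every library but replicate 1 of Ch25h-/- Tau+, and without it they cannot be told apart.

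Levels between genes were compared as CPM per kilobase of exon, averaged over the 16 libraries. Bcas1, a myelin-associated protein of early and mature oligodendrocytes, had the highest level at 21.6 ± 5.64 (SD, n = 16). Ptprz1, a receptor phosphatase that carries chondroitin sulfate, and Tnr, the matrix protein tenascin-R, followed at 12.8 ± 2.15 and 11.4 ± 2.7 (SD, n = 16), and their ranges overlapped. Gpr17, a receptor of the premyelinating stage, stood at 7.49 ± 1.05 and Pdgfra, the receptor for PDGF-A, at 5.55 ± 0.668 (SD, n = 16). Below a gap, Cspg4, which encodes NG2, the sialidase gene Neu4 and the SoxD factor Sox6 lay at 1.99 ± 0.318, 1.80 ± 0.251 and 1.67 ± 0.292 (SD, n = 16), neighbours that do not differ beyond their spread. Vcan, the proteoglycan versican, and Enpp6, a choline phosphodiesterase of newly forming oligodendrocytes, were lowest at 0.885 ± 0.179 and 0.823 ± 0.275 (SD, n = 16). Counts of a member in a library ran from 47 for Enpp6 to 4778 for Ptprz1. Enpp6 and Tnr varied most, with a highest library 3.37 and 3.15 times the lowest, and Pdgfra least, at 1.53 times.

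Upstream sequence is shown for Sox6, Tnr and Ptprz1, which varied together over the libraries, and for Enpp6, whose correlation with these 3 was weaker (r = 0.285 to 0.482 over 16 libraries, by the measure described below). Each line gives the 250 bases before a RefSeq transcription start (build GRCm38.p6), on the gene's strand, in a window with no annotated exon. Capitals mark E-boxes (CANNTG, the motif bound by OLIG2) and the SOX core motif (ATTGT or its complement ACAAT), both searched on both strands, with no overlap between matches. For Sox6, which has 6 annotated starts, the window is chr7:116031048-116031297 (minus strand), for Tnr chr1:159523519-159523768, for Ptprz1 chr6:22875252-22875501 and for Enpp6 chr8:46986637-46986886 (plus strand).
Sox6: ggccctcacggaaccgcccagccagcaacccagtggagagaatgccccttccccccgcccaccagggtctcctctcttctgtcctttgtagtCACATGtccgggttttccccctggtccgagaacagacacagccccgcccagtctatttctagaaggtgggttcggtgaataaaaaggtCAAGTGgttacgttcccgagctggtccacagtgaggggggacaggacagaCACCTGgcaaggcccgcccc
Tnr: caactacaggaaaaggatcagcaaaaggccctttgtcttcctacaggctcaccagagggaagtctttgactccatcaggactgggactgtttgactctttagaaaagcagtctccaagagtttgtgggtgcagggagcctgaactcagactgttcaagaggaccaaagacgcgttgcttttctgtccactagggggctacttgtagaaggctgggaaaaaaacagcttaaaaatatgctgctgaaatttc
Ptprz1: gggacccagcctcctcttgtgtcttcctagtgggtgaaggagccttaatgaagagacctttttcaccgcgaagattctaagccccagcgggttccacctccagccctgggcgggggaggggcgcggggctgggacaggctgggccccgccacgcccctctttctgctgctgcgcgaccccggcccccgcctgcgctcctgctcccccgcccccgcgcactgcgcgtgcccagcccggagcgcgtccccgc
Enpp6: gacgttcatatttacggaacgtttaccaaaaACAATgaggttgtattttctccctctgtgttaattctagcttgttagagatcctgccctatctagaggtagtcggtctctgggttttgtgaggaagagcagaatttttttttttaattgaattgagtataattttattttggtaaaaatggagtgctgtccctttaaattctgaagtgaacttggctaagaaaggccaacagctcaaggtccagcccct
The Sox6 window held 3 E-boxes and no SOX core motif, the Enpp6 window held 1 SOX core motif and no E-box, and the Tnr and Ptprz1 windows held neither. Over all 32851 RefSeq windows of 250 bases, 66.2% held an E-box and 27.7% a SOX core motif. Windows that overlap an exon were not left out of this set, unlike those shown. RefSeq promoter entries were matched for 8 of the 10 genes.

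The members differ in length, in base composition and in what overlaps them on the GRCm38 genome (GENCODE M21 annotation). Tnr lies at chr1:159523769-159931729, with 12.867 kb of exons, and Ptprz1 at chr6:22875502-23052916, with 14.245 kb. Sox6, at chr7:115470872-116038796, and Vcan, at chr13:89655312-89742509, hold 14.832 and 14.462 kb of exons. Cspg4, at chr9:56865033-56899870, and Pdgfra, at chr5:75152292-75198215, hold 11.931 and 10.024 kb. Shorter are Enpp6 at chr8:46986887-47096762 with 6.412 kb, Gpr17 at chr18:31942997-31949636 with 5.195 kb, Neu4 at chr1:94020451-94028334 with 4.637 kb, and Bcas1 at chr2:170346991-170427845 with 3.775 kb. GC content of the exons was lowest in Ptprz1, at 42.2%, and highest in Cspg4, at 58.2%. Whether reads were counted by strand is not given in the sources used here. Antisense transcripts cover 440 exon bases of Bcas1 (Bcas1os1, 11.7% of its exons), 456 of Pdgfra (Gm42802) and 443 of Tnr (Gm38039), and Lims2 covers 188 of Gpr17, so these values are uncertain to that extent.

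**Figure D1:**
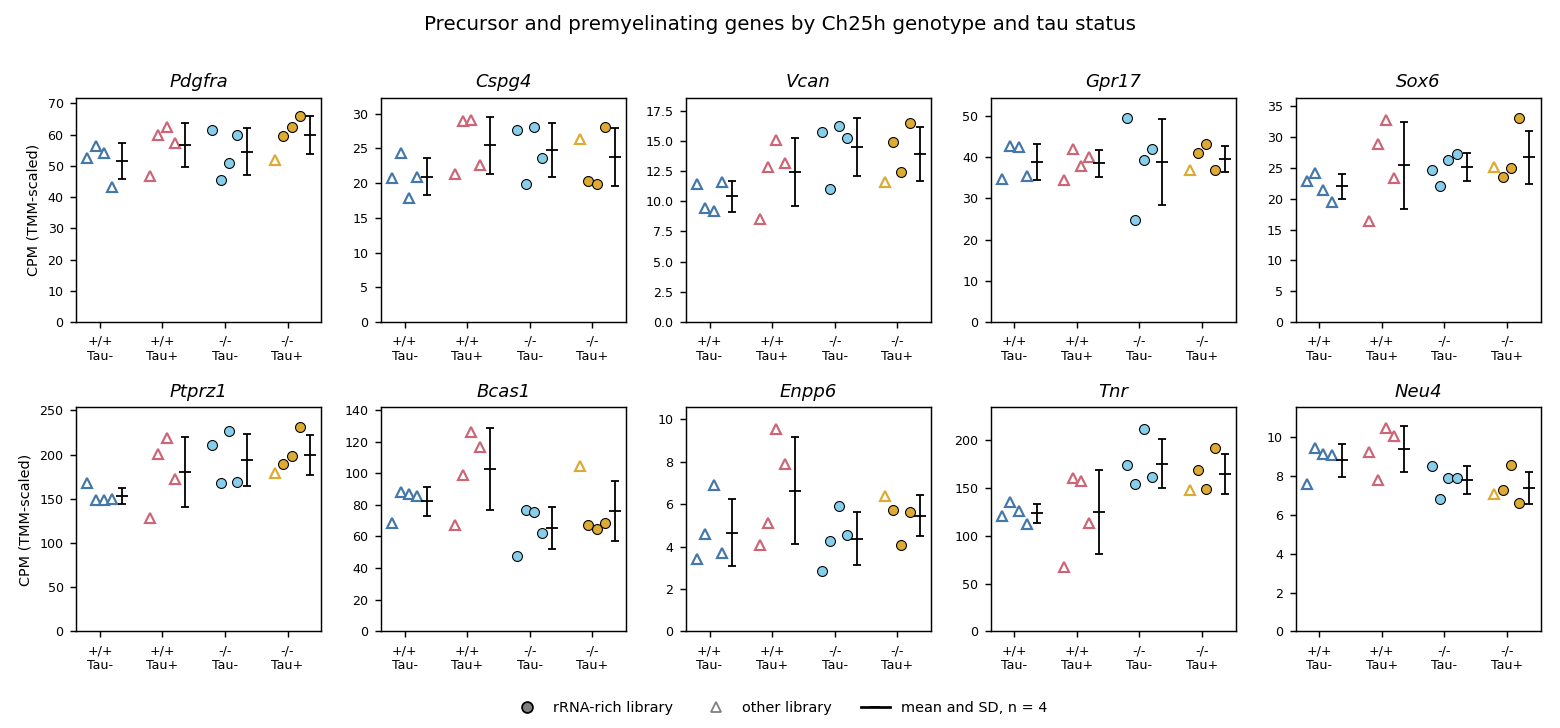
CPM of each gene in each library (vertical axis, TMM-scaled, starting at 0), by Ch25h genotype and tau status; filled circles are rRNA-rich libraries, open triangles the others, and the bar beside each group is its mean and SD (n = 4). Tnr and Ptprz1 in Ch25h-/- Tau- lie above every Ch25h+/+ Tau- library, and the other genes overlap between all groups compared.

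None of the 10 genes passed the test in any comparison. The test was the quasi-likelihood F test of edgeR over all 17736 genes, with Benjamini-Hochberg adjustment and a threshold of 0.05. Tau+ was set against Tau- within each genotype and as a mean of both, Ch25h-/- against Ch25h+/+ within Tau- and within Tau+, and the interaction tested whether the tau effect differed by genotype. The share of all genes that passed was 1.56% for the tau effect in Ch25h+/+, 0.0395% for that in Ch25h-/-, 1.03% for Ch25h loss in Tau-, 3.55% for Ch25h loss in Tau+, 0.0338% for the interaction and 0.857% for the mean tau effect. With shares this small, 0 of 10 does not set these genes apart from the rest. At an unadjusted p under 0.05, the counts were 0 of 10 for tau in either genotype (9.38% and 3.68% of all genes), 3 for Ch25h loss in Tau- (20.9%), 3 for Ch25h loss in Tau+ (23.9%), 0 for the interaction (4.13%) and 1 for the mean tau effect (9.85%). DESeq2 also called 0 of 10 in each comparison. A test that misses the threshold does not show equal levels, and the unadjusted 95% intervals give the fold changes that the data leave possible. They lay between 0.770-fold and 2.13-fold over the 10 genes for tau in Ch25h+/+, and between 0.605-fold and 1.87-fold for Ch25h loss in Tau-.

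**Figure D2:**
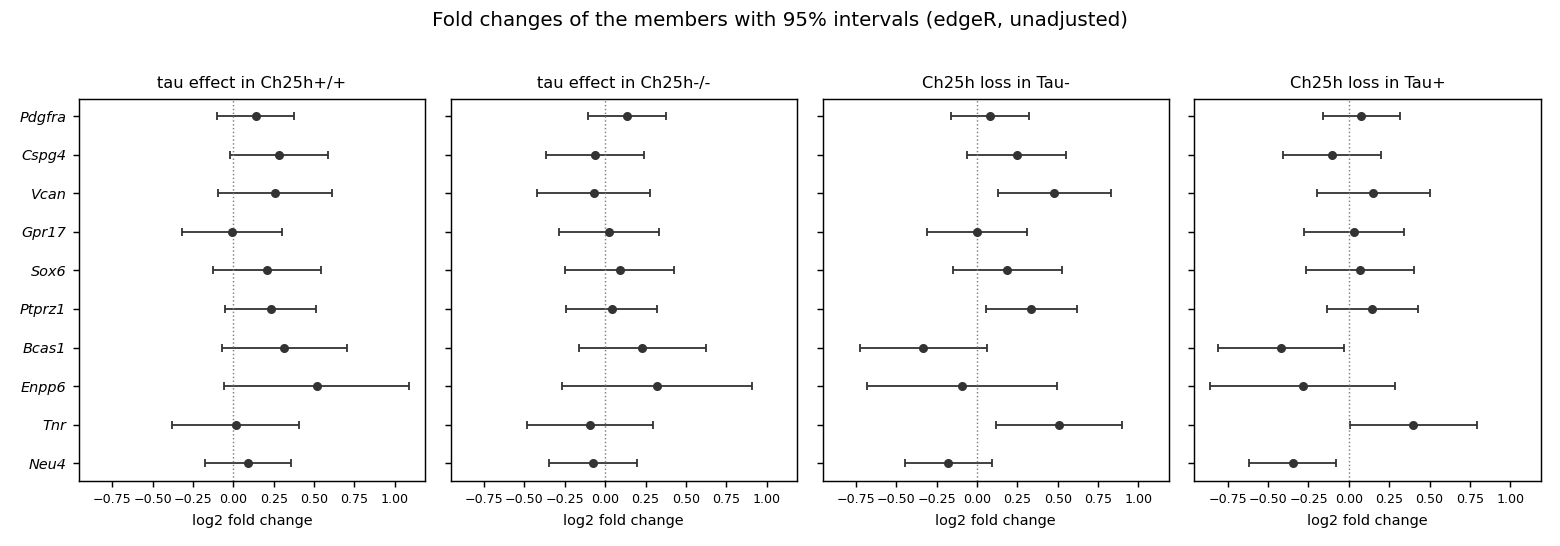
Log2 fold change (horizontal axis) of the 10 genes with unadjusted 95% intervals from the edgeR fit, in 1 panel per simple comparison. Intervals that leave out 0 belong to Vcan, Ptprz1 and Tnr for Ch25h loss in Tau-, and to Bcas1, Tnr and Neu4 for Ch25h loss in Tau+; none of these passed after adjustment.

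Among the receptors, Pdgfra receives the PDGF signal that keeps precursors dividing. Its CPM was 52.5, 56.2, 54.1 and 43.1 in Ch25h+/+ Tau-, and 46.6, 59.9, 62.5 and 57.4 in Ch25h+/+ Tau+. It was 61.6, 45.6, 51.0 and 59.7 in Ch25h-/- Tau-, and 51.7, 59.4, 62.4 and 65.8 in Ch25h-/- Tau+. All 4 groups overlapped, and its standard errors were the smallest of the 10 genes in the edgeR fit. The tau effect was 1.10-fold in each genotype (95% interval 0.932 to 1.30 in Ch25h+/+, 0.929 to 1.30 in Ch25h-/-), and Ch25h loss was 1.06-fold in each tau status (0.896 to 1.25 in Tau-, 0.894 to 1.25 in Tau+).

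Gpr17 is a G protein-coupled receptor that marks the step from precursor to premyelinating cell. Its CPM was 34.6, 42.7, 42.5 and 35.4 in Ch25h+/+ Tau-, and 34.4, 41.9, 37.9 and 40.0 in Ch25h+/+ Tau+. It was 49.5, 24.8, 39.2 and 42.0 in Ch25h-/- Tau-, and 36.8, 41.1, 43.2 and 36.8 in Ch25h-/- Tau+. The group means lay between 38.5 and 39.5 CPM, closer together than the libraries of any group. Both its highest and its lowest library belong to Ch25h-/- Tau-, where the SD was 10.4 CPM against 3.19 to 4.39 CPM in the other groups. The tau effect in Ch25h+/+ was 0.994-fold (95% interval 0.803 to 1.23), and Ch25h loss in Tau- was 1.0-fold (0.809 to 1.24).

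Sox6 encodes the SoxD factor that keeps precursors from differentiating. Its CPM was 22.9, 24.2, 21.5 and 19.5 in Ch25h+/+ Tau-, and 16.4, 28.9, 32.8 and 23.3 in Ch25h+/+ Tau+. It was 24.6, 22.1, 26.3 and 27.2 in Ch25h-/- Tau-, and 25.2, 23.5, 25.0 and 33.1 in Ch25h-/- Tau+. Replicate 1 of Ch25h+/+ Tau+ was the lowest of all 16 and replicate 3 of the same group nearly the highest, so the groups overlapped. The tau effect in Ch25h+/+ was 1.16-fold (95% interval 0.916 to 1.46), and Ch25h loss was 1.14-fold in Tau- and 1.05-fold in Tau+.

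The matrix and proteoglycan genes Tnr, Ptprz1, Vcan and Cspg4 had higher means in Ch25h-/- Tau- than in Ch25h+/+ Tau-. This was not particular to them, as Sox6 (25.1 against 22.0 CPM), Pdgfra (54.5 against 51.5) and Gpr17 (38.9 against 38.8) were also higher. Nor did it hold for all matrix genes: outside the members, Bcan (312.5 against 347.4 CPM), Ncan (226.2 against 242.4) and Matn4 (13.7 against 15.8) were lower. Tnr encodes tenascin-R, a matrix glycoprotein of perineuronal nets made by oligodendrocyte lineage cells and some neurons. Its CPM was 120.8, 135.1, 126.3 and 112.1 in Ch25h+/+ Tau-, and 174.8, 154.3, 212.0 and 162.0 in Ch25h-/- Tau-. Every Ch25h-/- Tau- library was above every Ch25h+/+ Tau- library. The log2 fold change was 0.51 (SE 0.19, 1.42-fold, 95% interval 1.08 to 1.87, edgeR adjusted p = 0.136). In Tau+ animals, Tnr was at 67.4, 160.7, 157.4 and 113.3 CPM with Ch25h and at 147.8, 169.3, 149.2 and 192.5 CPM without it. These groups overlapped, and replicate 1 of Ch25h+/+ Tau+ was the lowest library of all. The log2 fold change of Ch25h loss in Tau+ was 0.40 (SE 0.19, edgeR adjusted p = 0.203), and without that library it was 0.19 (SE 0.12, edgeR adjusted p = 0.433).

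Ptprz1 encodes a receptor phosphatase whose extracellular form, phosphacan, is a matrix proteoglycan. Its CPM was 167.4, 149.1, 148.3 and 149.3 in Ch25h+/+ Tau-, and 210.7, 168.0, 226.8 and 169.2 in Ch25h-/- Tau-. The groups did not overlap, but the margin was small: the lowest Ch25h-/- library exceeded the highest Ch25h+/+ library, 168.0 against 167.4 CPM. The log2 fold change was 0.34 (SE 0.14, edgeR adjusted p = 0.166). With Tau+ the values were 128.7, 201.0, 218.7 and 172.9 CPM in Ch25h+/+, and 178.8, 189.1, 198.2 and 231.7 CPM in Ch25h-/-, which overlapped (1.11-fold, 95% interval 0.909 to 1.34). Tnr and Ptprz1 were the 2 of 10 members whose groups did not overlap upward for Ch25h loss in Tau-, where 7.64% of all genes did so. Downward, 0 members did so, against 8.58% of all genes. For Ch25h loss in Tau+ 0 members separated in either direction, against 4.50% of all genes upward and 5.74% downward. For tau, 0 members separated, against 3.89% upward and 1.97% downward in Ch25h+/+ and 1.14% and 0.992% in Ch25h-/-.

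Vcan encodes versican, a large proteoglycan that binds hyaluronan. Its CPM was 11.4, 9.46, 9.19 and 11.6 in Ch25h+/+ Tau-, and 15.7, 11, 16.2 and 15.2 in Ch25h-/- Tau-. With the exception of replicate 2, the Ch25h-/- libraries lay above the Ch25h+/+ ones. The log2 fold change was 0.48 (SE 0.17, 1.39-fold, 95% interval 1.09 to 1.78, edgeR adjusted p = 0.121). In Tau+ it was at 8.50, 12.8, 15.1 and 13.2 CPM in Ch25h+/+ and at 11.6, 14.9, 12.4 and 16.5 CPM in Ch25h-/-, and these overlapped.

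Cspg4 encodes NG2, the proteoglycan by which precursors are named NG2 glia. Its CPM was 20.7, 24.3, 17.8 and 20.9 in Ch25h+/+ Tau-, 21.3, 28.9, 29.0 and 22.6 in Ch25h+/+ Tau+, 27.6, 19.8, 28.1 and 23.6 in Ch25h-/- Tau-, and 26.4, 20.3, 19.9 and 28.0 in Ch25h-/- Tau+. All groups overlapped. The tau effect was 1.22-fold in Ch25h+/+ (95% interval 0.988 to 1.5) and 0.957-fold in Ch25h-/- (0.775 to 1.18), and the test of the difference between them gave an interaction log2 value of -0.35 (SE 0.21, edgeR adjusted p = 1.0).

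Of the genes named above for the premyelinating stage, Bcas1 and Enpp6 had their highest means in Ch25h+/+ Tau+. Gpr17 had its lowest mean there, at 38.5 CPM. Cspg4 and Neu4 also had their highest means in that group, at 25.4 and 9.41 CPM. Bcas1 was at 68.4, 88, 87.0 and 85.5 CPM in Ch25h+/+ Tau-, and at 67.5, 98.9, 126.3 and 116.7 CPM in Ch25h+/+ Tau+. It was at 47.6, 76.5, 75.2 and 61.9 CPM in Ch25h-/- Tau-, and at 104.7, 67.4, 65.0 and 68.3 CPM in Ch25h-/- Tau+. Replicate 1 of Ch25h-/- Tau+, the library of its genotype that was not rRNA-rich, stood far above its group. The log2 fold change of Ch25h loss was -0.33 in Tau- (SE 0.19, edgeR adjusted p = 0.316) and -0.42 in Tau+ (SE 0.19, 0.747-fold, 95% interval 0.570 to 0.979, edgeR adjusted p = 0.179). Without replicate 1 of Ch25h-/- Tau+ the latter was -0.63 (SE 0.18, edgeR adjusted p = 0.0371), which passed the threshold, as did 9.42% of all genes tested without that library. In Tau- the value was -0.21 without replicate 1 of Ch25h-/- Tau-. The tau effect was 1.25-fold in Ch25h+/+ (95% interval 0.952 to 1.63) and 1.17-fold in Ch25h-/- (0.893 to 1.54).

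Enpp6 marks newly differentiating oligodendrocytes and was the least abundant member. Its CPM was 3.42, 4.59, 6.90 and 3.68 in Ch25h+/+ Tau-, and 4.07, 5.09, 9.53 and 7.89 in Ch25h+/+ Tau+. It was 2.83, 4.24, 5.91 and 4.52 in Ch25h-/- Tau-, and 6.38, 5.72, 4.09 and 5.62 in Ch25h-/- Tau+. All groups overlapped, and the SD reached 37.8% of the mean in Ch25h+/+ Tau+. For the mean tau effect, with 8 libraries on each side, the log2 fold change was 0.42 (SE 0.20, 1.34-fold, 95% interval 1.01 to 1.78, edgeR adjusted p = 0.497). This was the 1 member at an unadjusted p under 0.05 in that comparison, and Bcas1 came next with 0.27 (SE 0.13, edgeR adjusted p = 0.516), or 0.18 without replicate 1 of Ch25h-/- Tau+.

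Neu4 encodes a sialidase used as a precursor and premyelinating marker. Its CPM was 7.58, 9.46, 9.15 and 9.12 in Ch25h+/+ Tau-, and 9.24, 7.82, 10.5 and 10.1 in Ch25h+/+ Tau+. It was 8.55, 6.82, 7.89 and 7.92 in Ch25h-/- Tau-, and 7.08, 7.28, 8.58 and 6.62 in Ch25h-/- Tau+. In Tau+, 3 of 4 Ch25h-/- libraries were below every Ch25h+/+ library. The log2 fold change of Ch25h loss there was -0.35 (SE 0.13, 0.785-fold, 95% interval 0.651 to 0.947, edgeR adjusted p = 0.116), and in Tau- it was -0.18 (SE 0.13, edgeR adjusted p = 0.445).

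By direction alone, 9 of 10 members were higher in Ch25h+/+ Tau+ than in Ch25h+/+ Tau-, with a median log2 fold change of 0.22, where 47.8% of all genes were higher and the median was -0.01. In Ch25h-/-, 6 of 10 were higher with tau, with a median of 0.03, against 52.8% of all genes. Ch25h loss gave 7 of 10 higher in Tau- (median 0.14, 51.4% of all genes) and 6 of 10 in Tau+ (median 0.05, 50.7% of all genes). The interaction was below 0 in 9 of 10, with a median of -0.15, where 53.7% of all genes were above 0 and their median was 0.015. Its test called 0 of 10, and its 95% intervals ran from 0.494-fold to 1.54-fold. These comparisons share control libraries, and the members are read in the same animals, so the directions are not separate observations.

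Tnr and Bcas1, neither of which passed the test for Ch25h loss, had different ranges in the library classes. Tnr was at 149.2 to 212.0 CPM in the 7 rRNA-rich libraries and at 67.4 to 160.7 CPM in the other 9. Bcas1 was at 47.6 to 76.5 CPM in the rRNA-rich libraries and at 67.5 to 126.3 CPM in the others. The ratio of Tnr to Bcas1 within a library did not overlap between the classes: it was 2.02 to 3.67 in the rRNA-rich libraries (median 2.62) and 0.971 to 1.77 in the others (median 1.41). Replicate 1 of Ch25h-/- Tau+ had a ratio of 1.41, while its 3 sister libraries stood at 2.29 to 2.82. Its Tnr, at 147.8 CPM, was next to the 149.2 CPM of the lowest sister, and it departed in Bcas1, at 104.7 against 65.0 to 68.3 CPM. This ratio was formed after the values of both genes had been seen. Summed mature myelin genes had a lower range in the rRNA-rich libraries, 2336 to 3661 CPM against 2919 to 5503 CPM, with overlap. Neu4, the member with the smallest p for Ch25h loss in Tau+, was at 6.62 to 8.58 CPM in the rRNA-rich libraries and at 7.08 to 10.5 CPM in the others. Its value in replicate 1 of Ch25h-/- Tau+ was 7.08 CPM, below every Ch25h+/+ library (7.58 to 10.5 CPM). Malat1, a nuclear RNA, also separated the classes, at 392.2 to 1041 CPM of total counts against 167.4 to 290.3 CPM. The part of class and of Malat1 in these differences was not tested, and 1 library cannot tell class from genotype.

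**Figure D3:**
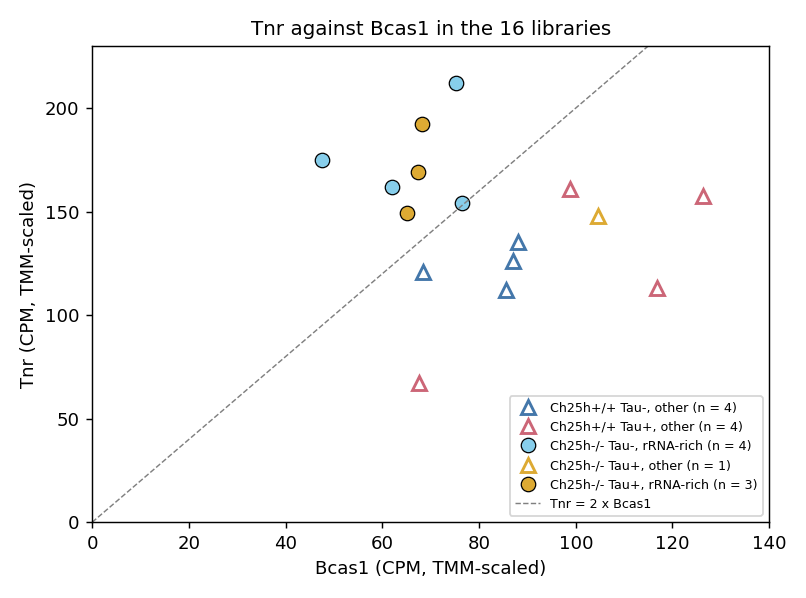
Tnr (vertical axis) against Bcas1 (horizontal axis) in CPM, 1 point per library, with filled circles for the 7 rRNA-rich libraries and open triangles for the other 9; the dashed line marks a ratio of 2. The rRNA-rich libraries lie above the line, at ratios of 2.02 to 3.67, and all others below it, at 0.971 to 1.77.

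A fit with library class as a term estimates Ch25h loss only through the 1 Ch25h-/- library outside the rRNA-rich class. It gave Bcas1 a log2 fold change of 0.31 in Tau- (SE 0.31) and 0.03 in Tau+ (SE 0.26), so both changed sign against the fit without it. Tnr kept its direction at 0.30 (SE 0.36) and 0.24 (SE 0.30), as did Neu4 at -0.26 (SE 0.25) and -0.41 (SE 0.21). Vcan was at 0.14 (SE 0.31) in Tau- and -0.10 (SE 0.26) in Tau+, and Ptprz1 at 0.13 (SE 0.26) and -0.01 (SE 0.21). With counts corrected for GC content per library, Tnr was at 0.47 (SE 0.17) in Tau- and 0.40 (SE 0.17) in Tau+, close to the values without the correction. Ptprz1, the member with the lowest GC content, was then at 0.13 (SE 0.11) in Tau- and -0.02 (SE 0.11) in Tau+.

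Members varied together within groups, in pairs that were picked out after the values were seen. The measure was the correlation over the 16 libraries of log2(CPM + 0.5) after each group's mean was subtracted, so it does not use the group differences. All values of a library share its depth, RNA quality and tissue piece. Permutation p-values, two-sided, used 100000 resamples of libraries within groups and were adjusted over the 45 pairs. Sox6 and Tnr had Pearson's r = 0.892 (permutation p = 0.00267, adjusted 0.0214) and Spearman's rho = 0.788 (permutation p = 0.00389, adjusted 0.0408). Ptprz1 and Tnr had r = 0.888 (permutation p = 0.00136, adjusted 0.0165) and rho = 0.762 (permutation p = 0.00544, adjusted 0.0408). Vcan and Ptprz1 had r = 0.817 (permutation p = 0.001, adjusted 0.0165) and rho = 0.785 (permutation p = 0.0023, adjusted 0.0345). Sox6 and Ptprz1 had r = 0.824 (permutation p = 0.00511, adjusted 0.0287) and rho = 0.688 (permutation p = 0.0118, adjusted 0.056). Vcan did not pass with Sox6 (r = 0.705, permutation p = 0.0179, adjusted 0.0619) or with Tnr (r = 0.726, permutation p = 0.0127, adjusted 0.0568). Sox6 also passed with the precursor surface genes Pdgfra, at r = 0.725 (adjusted permutation p = 0.0165) and rho = 0.785 (adjusted 0.0322), and Cspg4, at r = 0.706 (adjusted permutation p = 0.0214) and rho = 0.841 (adjusted 0.0322). By r alone, Cspg4 passed with Tnr (r = 0.642, adjusted permutation p = 0.0467; rho = 0.703, adjusted 0.056) and Pdgfra with Gpr17 (r = 0.694, adjusted permutation p = 0.0269; rho = 0.679, adjusted 0.056). Leaving out the 2 libraries farthest from the median of the first-named gene, r was 0.727 for Sox6 and Tnr, 0.756 for Ptprz1 and Tnr and 0.657 for Vcan and Ptprz1. Within the 7 rRNA-rich libraries the values of these 3 pairs were 0.598, 0.853 and 0.670, and within the 8 Ch25h+/+ libraries 0.969, 0.929 and 0.885.

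Of the premyelinating genes, Bcas1 and Enpp6 formed a pair of their own among those that passed. Gpr17 passed with neither (r = -0.254 with Bcas1 and -0.0 with Enpp6), and by r it passed with the precursor gene Pdgfra. Bcas1 and Enpp6 had r = 0.775 (permutation p = 0.00145, adjusted 0.0165) and rho = 0.729 (permutation p = 0.00541, adjusted 0.0408). Their r was 0.749 without the 2 farthest libraries, 0.787 within the 7 rRNA-rich libraries and 0.818 within the 8 Ch25h+/+ libraries. Bcas1 and Pdgfra, markers of the later and the earlier stage, gave r = -0.139 (permutation p = 0.657) and rho = -0.112 (permutation p = 0.723), and r was -0.831 within the 7 rRNA-rich libraries and 0.618 within the 8 Ch25h+/+ libraries. The pooled value rests on few libraries: it was -0.564 without the 2 farthest and 0.071 without replicate 1 of Ch25h-/- Tau+. Bcas1 and Gpr17 were alike in this, with r = -0.776 and 0.576 within these sets and -0.254 over all (permutation p = 0.438), which became 0.202 without the 2 farthest libraries. The difference between the classes was not tested. In all, 9 of 45 pairs passed by Pearson's r and 6 by Spearman's rho.

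**Figure D4:**
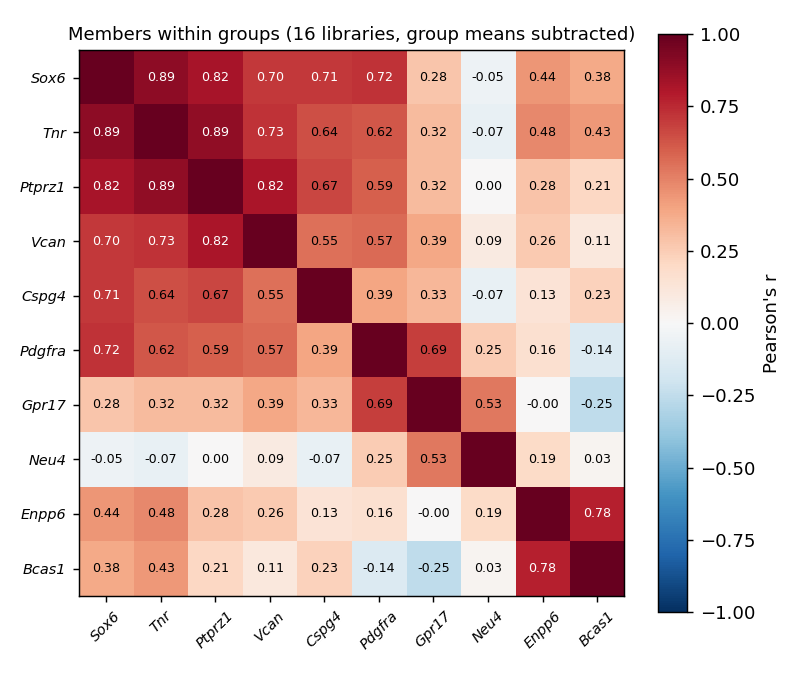
Pearson's r between each pair of members over 16 libraries after group means were subtracted from log2(CPM + 0.5), from -1 (blue) to 1 (red). The 6 pairs among Sox6, Tnr, Ptprz1 and Vcan lie at 0.705 to 0.892, of which those of Vcan with Sox6 and with Tnr did not pass, and Bcas1 and Enpp6 pair at 0.775.

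Over 14481 genes, those most like each member by the same measure were named, up to 3 for each, as a description with no test. For Bcas1 they were Arhgap23 (r = 0.953), the myelin basic protein gene Mbp (0.934) and Ttyh2 (0.920). For Enpp6 they included Il33 (0.957) and Gpr37 (0.926). Bcas1 thus had a major myelin gene among its 3 nearest. For Tnr the nearest were the dystrophin gene Dmd (0.967), Srgap3 (0.964) and Ntrk3 (0.959), and for Ptprz1 Nfat5 (0.963), Daam1 (0.962) and the neuronal marker Map2 (0.957). Sox6 was nearest to Zfp536 (0.941), Bsn (0.939) and Phlpp1 (0.939). None of the 3 nearest to Sox6, Tnr or Ptprz1 was on a list of oligodendrocyte lineage genes. The same held for Pdgfra, Cspg4, Vcan, Gpr17 and Neu4. These lists hold few of the 14481 genes, so the absence does not set any of these members apart. Pdgfra was nearest to Map3k7 (0.916), Iqcc (0.889) and Ssr1 (0.887), and Vcan to Npat (0.912), Egfr (0.897) and Eps8 (0.887). Cspg4 was nearest to Lrp1 (0.896), Trrap (0.879) and Polr2a (0.875), and the genes nearest to Gpr17 included Gas5 (0.876) and Papss2 (0.857). The values were lowest for Neu4, with Gm44950 (0.834), Elovl1 (0.815) and Gm37176 (0.768). These names moved with the choices made: without replicate 1 of Ch25h-/- Tau+, the 3 nearest to Bcas1 shared 0 genes with those given, and those of Ptprz1 shared 3. By Spearman's rho, the 3 nearest to Sox6, Cspg4 and Gpr17 shared 0 genes with those given, and those of Bcas1 shared 3.

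Other genes of the lineage were read from lists of known markers. Of 18 other precursor genes, 1 fell, in Ch25h loss in Tau+, where 3.55% of all genes passed. That gene was Gpr37l1, a receptor also made by astrocytes, at 261.3 ± 30.0 CPM (SD, n = 4) in Ch25h+/+ and 183.9 ± 17.7 CPM (SD, n = 4) in Ch25h-/-. Its log2 fold change was -0.51 (SE 0.08, edgeR adjusted p = 0.00342), it passed in 23 of 24 alternatives, and its groups did not overlap. The astrocyte markers also held 1 that fell there, Aldoc, at -0.33 (SE 0.08, edgeR adjusted p = 0.0315, passed in 17 of 24 alternatives), among 7 of 8 below 0. Of the 11 tested PDGF ligands and growth factors for precursors, 1 fell in the same comparison. This was Pdgfb, a ligand made by endothelial cells and neurons, with -0.45 (SE 0.11, edgeR adjusted p = 0.0352), and it passed in 16 of 24 alternatives. Pdgfa, the ligand of PDGFRA, had -0.39 (SE 0.10, edgeR adjusted p = 0.0617) in Tau- and -0.34 (SE 0.10, edgeR adjusted p = 0.0617) in Tau+, short of the threshold in both, beside 1.06-fold for Pdgfra in each.

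Of 16 lineage factors, 0 passed in any comparison. In Ch25h loss in Tau+ 12 of 16 were below 0 (median -0.20), led by Nkx6-2 with -0.58 (SE 0.18, edgeR adjusted p = 0.0745) and Olig1 with -0.37 (SE 0.12, edgeR adjusted p = 0.0748). Without replicate 1 of Ch25h-/- Tau+, 4 of the 16 fell, namely Nkx6-2, Olig1, Olig2 and Sox10, where 9.42% of all genes passed, against 3.55% with it. Of the 15 tested further premyelinating genes, 0 passed. Bmp4, a signal made by committed precursors, was at 3.03 ± 0.385 CPM (SD, n = 4) in Ch25h+/+ Tau- and 5.62 ± 1.25 CPM (SD, n = 4) in Ch25h+/+ Tau+, with a log2 fold change of 0.89 (SE 0.26, edgeR adjusted p = 0.117). Of the 7 proliferation genes tested, 0 passed. The 14 mature myelin genes were all above 0 for tau in Ch25h+/+ (median 0.29) and in Ch25h-/- (median 0.20), but 0 passed in any comparison.

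Markers of the other cells that can hold the members, and of microglia, moved in part. In the tau effect in Ch25h+/+, 5 of 8 microglia markers rose. On the log2 scale these included Ctss (1.28, edgeR adjusted p = 4.1e-06), C1qa (1.35, edgeR adjusted p = 2.72e-05), Csf1r (0.50, edgeR adjusted p = 0.00153) and Cx3cr1 (0.52, edgeR adjusted p = 0.0229). Of 24 alternatives, Ctss, C1qa and Csf1r passed in 24 and Cx3cr1 in 18. Summed microglia markers were 545.4 to 689.4 CPM in Ch25h+/+ Tau+ against 332.4 to 417.5 CPM in every other library. In Ch25h loss in Tau+, where Bcas1, Tnr and Neu4 had their unadjusted p under 0.05, 6 of 8 microglia markers fell. They included C1qa (-1.54, edgeR adjusted p = 1.35e-05), Ctss (-1.05, edgeR adjusted p = 8.7e-05), Csf1r (-0.47, edgeR adjusted p = 0.00404) and Tmem119 (-0.39, edgeR adjusted p = 0.0278). Of 24 alternatives, C1qa and Ctss passed in 24, Csf1r in 23 and Tmem119 in 17. Of the same 8, 2 fell in the interaction, Ctss (-1.19, edgeR adjusted p = 0.0131) and C1qa (-1.26, edgeR adjusted p = 0.0222), which passed in 21 and 16 of 23 alternatives. For the mean tau effect 4 rose, among them Ctss (0.69, edgeR adjusted p = 0.000189), C1qa (0.72, edgeR adjusted p = 0.000767) and Csf1r (0.30, edgeR adjusted p = 0.00892).

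Of 8 mural cell markers, which bear on Cspg4, 1 rose for tau in Ch25h+/+ (Vtn, 0.51, SE 0.12, edgeR adjusted p = 0.0344, passed in 18 of 24 alternatives). The same gene fell in Ch25h loss in Tau+ (-0.46, SE 0.12, edgeR adjusted p = 0.0457, passed in 14 of 24). The summed level of the list was 263.5 to 295.0 CPM in Ch25h+/+ Tau+, against 183.0 to 232.1 CPM in Ch25h+/+ Tau- and 220.5 to 256.3 CPM in Ch25h-/- Tau+. Of 8 astrocyte markers, which bear on Ptprz1 and Vcan, 0 passed for tau in Ch25h+/+, with 7 above 0 (median 0.19). In the interaction 8 of 8 were below 0 (median -0.25) and 0 passed, with 3 at an unadjusted p under 0.05, against 4.13% of all genes. Their sum was 3739 to 4068 CPM in Ch25h+/+ Tau-, 3367 to 5282 CPM in Ch25h+/+ Tau+, 3991 to 4805 CPM in Ch25h-/- Tau- and 4114 to 4955 CPM in Ch25h-/- Tau+. Of these ranges, those of Ch25h+/+ Tau- and Ch25h-/- Tau+ did not overlap, but no test compared these groups. Slc1a2 was the largest part of the sum, with means of 2190.6 and 2672.8 CPM in them. Slc1a3 and Aqp4 also had the higher mean in Ch25h-/- Tau+, while Aldoc, Fgfr3, Gja1, Aldh1l1 and Gjb6 had the lower. Of 8 fibroblast markers, which bear on Pdgfra, 0 passed in any comparison. For tau in Ch25h+/+ all 8 were above 0 (median 0.68), against 47.8% of all genes. The summed level was 102.2 to 204.6 CPM in Tau+ against 67.3 to 122.8 CPM in Tau-. For tau in Ch25h-/- all 8 were also above 0 (median 0.41), against 52.8% of all genes. There the sum was 106.8 to 126.7 CPM in Tau+ against 58.9 to 146.0 CPM in Tau-. Of 8 interneuron markers, which bear on Sox6 and Tnr, 0 passed in any comparison, and their sum lay between 991.0 and 1275 CPM. Their part in the members' values was not tested.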

How the data were processed

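Bulk RNA was sequenced in 16 libraries from mouse brain. The authors deposited raw counts per gene and library, with no normalization. STAR 2.7 and the builds GRCm38 and mm10 are named per the submitters' processing notes; the counting program and use of strand are not given in the sources used here. Totals were 15530352 to 25602500 counts, and counting error is all that these depths state.

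Groups follow the genotype label. The labels do not say that libraries come from separate animals, so p-values measure the spread between these samples, which may be technical. Genes were filtered with filterByExpr by group (17736 left) and tested with edgeR 4.0.16 in R 4.3.3 (quasi-likelihood F test, two-sided, TMM, 1 fit of 16 libraries, 1 mean per group). P-values were adjusted by Benjamini-Hochberg over all genes tested, at 0.05. The test was also run on simulated counts, and the outcome is not reported here. CPM values used TMM-scaled library sizes. Standard errors were taken from the F statistic, and 95% intervals are unadjusted. Library class was rRNA-rich above 1000 CPM of CT010467.1 on total counts.

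The members and lists were chosen with earlier results of these data known. All 10 members are named. Of each list, genes past the threshold are named, at most 5 per comparison, and otherwise the 2 with the smallest p may be given as values. Beyond this rule, the astrocyte markers, Bcan, Ncan and Matn4 are named by their group means, after the values were seen. For likeness, the 3 genes with the highest Pearson correlation to each member are named, save 2.

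Alternatives were DESeq2 1.42.0, size factors by relative log expression, a filter at a mean of 50 counts or at 1 count in all, limma-voom with quality weights (limma 3.58.1), only the libraries compared, a term for library class, GC-corrected offsets (loess span 0.5, GC content known for 17598 genes), CPM on total counts, Spearman's rho for likeness, and leaving out each library in turn. Likeness without replicate 1 of Ch25h-/- Tau+ and the tests over member pairs were added after seeing the data. The 2 genes left out of the likeness lists and 1 microglia marker are not reported here.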

Additional observations from a re-analysis of the deposited data

Results flagged for a closer look

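Of the 40 sets of 4 libraries formed by the 10 genes and 4 groups, 3 held a library that stood far from the other libraries of its set, by a gap, divided by the whole range, above Dixon's 95% critical value for 4 samples. Chance gives about 1 in 20. Bcas1 in replicate 1 of Ch25h-/- Tau+ was at 104.7 CPM, with a gap of 0.916 of the range above the others at 65.0 to 68.3 CPM, and this is the 1 Ch25h-/- library outside the rRNA-rich class. Bcas1 in replicate 1 of Ch25h+/+ Tau- was at 68.4 CPM, below the others at 85.5 to 88 CPM (0.874 of the range). The same library was highest for Ptprz1, at 167.4 CPM against 148.3 to 149.3 CPM (0.944 of the range), and had the lowest summed mature myelin genes of its group, at 2919 CPM.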

How the results depend on the processing

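No paired analysis was possible because the replicate numbers only follow the order of the records and pair no libraries across groups. Over 1420 alternative values of the 60 member fold changes, 85 changed sign, 81 of them where the value was under its standard error. Reversals came with the term for library class, for Bcas1 in Ch25h loss in Tau- (0.314) and in Tau+ (0.032) and Ptprz1 in Tau+ (-0.013), and with GC-corrected offsets for Ptprz1 in Tau+ (-0.020). Of 142 alternative counts of members called, 136 were 0. The others, for Ch25h loss, were 1 with no filter and 1 with only the libraries compared in Tau- (Tnr both times, adjusted p = 0.0453 and 0.016, where 1.54% and 7.27% of all genes passed), 1 with limma-voom in Tau+ (Bcas1, adjusted p = 0.0144, 10.6% of all genes), and 0 to 2 in Tau- and 0 to 1 in Tau+ when a library was left out. Without replicate 1 of Ch25h+/+ Tau+, Tnr (adjusted p = 0.0205) and Vcan (0.0458) passed in Tau- (7.25% of all genes), without replicate 2 Neu4 in Tau+ (0.0497, 7.01%), and without replicate 1 of Ch25h-/- Tau+ Bcas1 in Tau+ (0.0371, 9.42%), all by edgeR. The cause was not tested.

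Counts over all genes moved more. For tau in Ch25h+/+, 277 genes passed, 424 with DESeq2, 498 with limma-voom and 160 to 299 when a library was left out. For tau in Ch25h-/-, 7 passed (71.4% higher), 28 with no filter, 2 at a mean of 50 counts, 14 with DESeq2 and 6 to 13 with a library left out. For Ch25h loss in Tau-, 182 passed (20.9% higher), 522 with no filter, 967 with DESeq2, 1388 with limma-voom, 1229 with only the libraries compared, 0 with the class term, 13 with GC-corrected offsets (46.2% higher) and 3 to 1306 with a library left out, the extremes being replicate 1 of Ch25h+/+ Tau- and of Ch25h+/+ Tau+. For Ch25h loss in Tau+, 629 passed (32.3% higher), 1397 with DESeq2, 1883 with limma-voom, 106 with only the libraries compared, 10 with the class term (10% higher), 189 with GC-corrected offsets (20.6% higher) and 108 to 1691 with a library left out, the extremes being replicate 4 of Ch25h+/+ Tau+ and replicate 1 of Ch25h-/- Tau+. For the interaction 6 passed, 57 with no filter, 55 with DESeq2, 3 with the class term and 0 to 22 with a library left out. For the mean tau effect 152 passed, 319 with no filter, 292 with DESeq2, 257 with limma-voom and 107 to 233 with a library left out. Where 1 library leaves a group of 4, the remaining 3 are assumed to vary like the other groups. CPM on total counts moved 0 of 40 group means beyond their SD. Depth limits Enpp6 most, with 47 to 205 counts per library.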
